A study of Homo sapiens with 4 samples.

Results

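The hnRNP and SR splicing regulators were taken as the protein-coding genes of the deposited table whose symbol begins with HNRNP or with SRSF and a digit, together with TRA2A and TRA2B. The choice used names only, no measured value. It gave 36 of the 16174 listed genes, of which 22 were hnRNP genes and 14 were SR genes with the TRA2 pair. Of these, 31 averaged 1 TPM or more and were tested, 18 hnRNP and 13 SR. TPM expresses reads per unit of gene length, scaled so that libraries share a total.

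The samples were H9, a widely used human embryonic stem cell line. All carried dCas9-KRAB under doxycycline control, in which catalytically inactive Cas9 brings a KRAB repressor to the guide's site, integrated by a transposase and kept under puromycin selection, and all received doxycycline. The knockdown arm also carried 4 pooled guides against the long non-coding RNA gene SNHG26, and the control arm carried guides with no target. Cells were harvested on day 2 or day 3 of doxycycline, and their RNA was read as amplified poly(A) cDNA on a nanopore sequencer, with 1 library for each arm and day. Nothing in the labels says that the libraries came from separate cultures or clones, so p-values measure the spread between these 4 libraries, which also holds any effect of the day.

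hnRNP proteins coat nascent transcripts and often keep the spliceosome from weak exons, by binding silencer motifs in exons and introns. SR proteins join RNA recognition motifs to a tail rich in arginine and serine, bind exonic enhancers, and recruit the early spliceosome. The balance between these families sets the inclusion of many alternative exons. Many of the genes also hold exons that, when spliced in, send their own mRNA to nonsense-mediated decay, which is how several of them limit their own level. Stem cells depend on several of these factors for the splice forms typical of pluripotency.

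The promoters of 4 members are shown, chosen after their values were seen. Among members that averaged 50 TPM or more, SRSF1 had the largest difference between the arms, SRSF5 was the furthest above day 2 on day 3, and HNRNPAB the furthest below. SRSF10 had the largest day difference of the SR members. None of these differences passed the test described below. Each line gives the 250 bases before the RefSeq start of the gene (GRCh38.p14), 5′ to 3′ on the gene's strand. The windows are chr17:58007247-58007496 (minus strand) for SRSF1, chr14:69766892-69767141 (plus) for SRSF5, chr1:23980328-23980577 (minus) for SRSF10 and chr5:178204283-178204532 (plus) for HNRNPAB. Capitals mark matches on either strand to the motifs named after the lines.
SRSF1: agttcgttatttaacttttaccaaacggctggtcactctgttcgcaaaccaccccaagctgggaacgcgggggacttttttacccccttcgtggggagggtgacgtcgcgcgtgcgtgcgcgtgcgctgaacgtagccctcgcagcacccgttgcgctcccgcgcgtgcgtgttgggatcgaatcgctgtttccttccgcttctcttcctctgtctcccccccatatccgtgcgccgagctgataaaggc
SRSF5: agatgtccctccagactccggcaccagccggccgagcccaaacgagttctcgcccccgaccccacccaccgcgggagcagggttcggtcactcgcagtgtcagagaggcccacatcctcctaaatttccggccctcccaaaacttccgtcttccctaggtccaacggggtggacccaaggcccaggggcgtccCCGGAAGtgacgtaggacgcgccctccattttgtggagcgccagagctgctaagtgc
SRSF10: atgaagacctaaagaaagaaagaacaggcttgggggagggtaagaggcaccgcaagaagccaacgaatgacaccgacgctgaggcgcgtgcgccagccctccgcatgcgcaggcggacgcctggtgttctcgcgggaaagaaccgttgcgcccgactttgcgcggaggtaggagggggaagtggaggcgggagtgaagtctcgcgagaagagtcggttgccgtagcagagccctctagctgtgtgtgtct
HNRNPAB: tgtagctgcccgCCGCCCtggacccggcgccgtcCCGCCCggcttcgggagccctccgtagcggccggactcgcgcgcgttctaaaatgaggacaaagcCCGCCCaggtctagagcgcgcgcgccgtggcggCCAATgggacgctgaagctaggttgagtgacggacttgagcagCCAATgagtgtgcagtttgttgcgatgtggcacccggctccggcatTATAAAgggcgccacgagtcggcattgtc

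The motifs searched were CCAAT, the ETS site CCGGAAG, the Sp1 box GGGCGG, the E-box CACGTG and the core box TATAAA, on both strands of the 300 bases around the start, 50 of them transcribed. RefSeq promoters were matched by symbol for 32 of the 36 members, and HNRNPA1, HNRNPA1L3, SRSF2 and TRA2A had none. The 32 include HNRNPA0, HNRNPUL2, HNRNPLL and SRSF12, which were not tested, whereas the other protein-coding genes beside them were all tested. CCAAT was found in 13 of 20 hnRNP promoters (65.0%) and in 2 of 12 SR promoters (16.7%), against 34.6% of all 35116 promoters and 39.4% of those of 5461 other tested protein-coding genes. CACGTG was found in 7 of 20 hnRNP promoters (35.0%) and 0 of 12 SR promoters, against 7.26% and 10.7%. GGGCGG was found in 16 hnRNP promoters (80.0%) and 6 SR promoters (50.0%), against 45.0% and 71.9%. TATAAA was found in 3 of 20 hnRNP and 2 of 12 SR promoters, against 11.5% and 5.15%. CCGGAAG was found in 3 and 2 as well, against 10.3% and 23.6%. Both families had a median of 30 CpG pairs per promoter, against 14 over all promoters and 26 over the other tested protein-coding genes. Of the printed windows, the one of HNRNPAB held the CCAAT, Sp1 and core boxes, the one of SRSF5 held CCGGAAG, and those of SRSF1 and SRSF10 held none of these letters. No motif contains another. The RefSeq starts of SRSF1, SRSF5 and SRSF10 lie inside the wider spans that the deposited table lists. The promoter of HNRNPA1L2, counted among the hnRNP promoters, is at chr13:52617275-52617574, outside the listed span of that gene, 52642431 to 52643773. These matches are descriptions and say nothing of binding.

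The libraries were shallow. Genes with a single read gave 1 read on 10 kb of gene a worth of 0.729 TPM in knockdown day 2, 0.653 in knockdown day 3, 0.803 in control day 2 and 0.672 in control day 3. Reads were estimated with each transcript at the median span of its gene's transcripts in GENCODE release 29. The members held an estimated 2618, 3038, 2506 and 2638 reads in these libraries, and this order is used for 4 values throughout. HNRNPC alone gave 954, 1028, 907 and 818 of these, and its number rests on the transcripts assumed. SNHG26 (chromosome 7, 22853869 to 22913785, plus strand) had 0, 0.933, 2.98 and 4.03 TPM, an exact permutation p of 0.333, the smallest that 2 libraries against 2 allow. These values stood for an estimated 0, 0.72, 1.87 and 3.03 reads on the median transcript span. They are not upper bounds, since the listed span is wider and would allow more reads. The limma adjusted p was 0.935, so repression was not shown by a test at this depth. Of 10 pluripotency markers, 9 were in the table and had a value in all 4 libraries, with a summed level of 1715 to 1848 TPM with the SNHG26 guides and 1839 to 1935 TPM with the control guides. Of the lists for other cell types, few genes were in the table: 3 of 7 for mesendoderm, 1 of 6 for amnion, 2 of 5 for neuroectoderm and 2 of 5 for fibroblasts. Those of mesendoderm summed to at most 1.98 TPM in any library, with EOMES and FOXA2 at 0, and ISL1 of the amnion list was at 0. The neuroectoderm genes summed to 17.1 to 24.5 TPM over all libraries, with OTX1 at 0. The fibroblast genes in the table, COL1A1 and THY1, summed to 57.6 to 88.6 TPM. COL3A1, DCN and LUM of that list were not in the table, so their levels are not known.

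Levels of the hnRNP members ranged widely. HNRNPA1 (chromosome 12, 54280193 to 54287088), which binds UAG-containing silencers, had the highest TPM of all members, with 572, 657, 523 and 687 TPM. Its lowest library lay above the highest library of any other member. HNRNPH1, which binds runs of G, had 273, 313, 356 and 256 TPM, and HNRNPDL, a relative of the AU-rich element binder HNRNPD, had 205, 288, 227 and 211 TPM. The ranges of HNRNPH1 and HNRNPDL overlapped, so their order is within the spread.

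A group of hnRNP members lay near 100 TPM. HNRNPL, which binds CA repeats, had 147, 103, 108 and 123 TPM. HNRNPC, which packs nascent RNA by binding runs of U, had 123, 119, 129 and 97.3 TPM. HNRNPAB, a relative of HNRNPD, had 121, 73.9, 164 and 108 TPM. These 3 overlapped in range, and HNRNPAB was the most variable of them, with a coefficient of variation over the 4 libraries of 31.8%, against 11.8% for HNRNPC.

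Next came HNRNPK, which binds runs of C through KH domains, with 67.7, 83.6, 86.8 and 80.9 TPM. HNRNPH2, a close relative of HNRNPH1 on the X chromosome, had 64.1, 76.2, 67.9 and 61.3 TPM. HNRNPH3, a shorter member of that group, had 55.7, 52.0, 70.7 and 55.0 TPM. HNRNPF, also a binder of runs of G, had 46.0, 74.9, 45.9 and 55.5 TPM. Neighbours among these 4 overlapped in range.

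HNRNPH2 came out at whole read numbers, within 0.0001 of a read, in every library on its listed span, and so has an exact depth. It had 52, 69, 50 and 54 reads, with exact Poisson 95% intervals of 38.8 to 68.2, 53.7 to 87.3, 37.1 to 65.9 and 40.6 to 70.5 reads. The intervals cover counting error only, since reads were amplified without molecular identifiers, and all 4 overlapped. For the other members above a few reads, whose TPM adds transcripts of different spans, reads are given as estimates or as upper bounds on the full span.

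Low in the order stood HNRNPR at 19.5 to 22.1 TPM, HNRNPM at 15.5 to 19.6, HNRNPU at 9.18 to 23.5, HNRNPA3 at 8.55 to 12.6, HNRNPUL1 at 6.30 to 11.4, HNRNPA2B1 at 6.91 to 9.67 and HNRNPD at 5.83 to 12.3 TPM. HNRNPA2B1, the partner of HNRNPA1 in the core hnRNP particle, is listed on chromosome 7 from 26171151 to 26201529 and held at most 43.8 reads in any library. HNRNPLL had 0.168 to 1.01 TPM and was below the filter.

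Among the SR members, SRSF7 and SRSF3 had the highest TPM and varied least. SRSF7, the SR protein with a zinc knuckle, had 174, 191, 195 and 178 TPM. SRSF3, the smallest SR protein, which also links splicing to mRNA export, had 159, 156, 149 and 152 TPM. Their coefficients of variation were 5.41% and 2.95%, and their ranges did not overlap each other or that of HNRNPDL above or HNRNPL below. They held a mean of at most 205 and 251 reads per library. Counting error alone exceeds these coefficients at that depth, so the small spread and the gaps describe these 4 libraries only.

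SRSF5, an SR protein with a pair of RNA recognition motifs, had 47.5, 98.9, 64.2 and 111 TPM. SRSF1, the first SR protein purified as a splicing factor, had 96.0, 96.7, 64.9 and 30.6 TPM. SRSF2, which stays in nuclear speckles, had 47.6, 63.7, 47.5 and 33.4 TPM. SRSF10, which represses splicing when it loses its phosphates, had 15.5, 35.1, 30.8 and 51.3 TPM. For SRSF5 and SRSF10 the day 3 libraries were the higher ones in both arms, whereas for SRSF1 the libraries of the knockdown arm were.

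The other SR members were lower. SRSF9 stood at 17.5 to 24.6 TPM, SRSF6 at 13.8 to 24.4, and SRSF4 at 7.49 to 8.60 TPM. SRSF11, which takes part in choosing splice sites, had 5.29, 3.70, 3.95 and 2.66 TPM, the lowest level of the SR members with reads in every library. TRA2B, a binder of GAA-rich enhancers, had 19.6, 12.6, 20.1 and 12.8 TPM. Its paralog TRA2A (chromosome 7, 23504780 to 23532041) had 10.7, 8.88, 7.38 and 9.13 TPM and lay 590995 bases from SNHG26, closer than any other member. SRSF12 had 0 to 0.989 TPM and was below the filter.

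**Figure D1:**
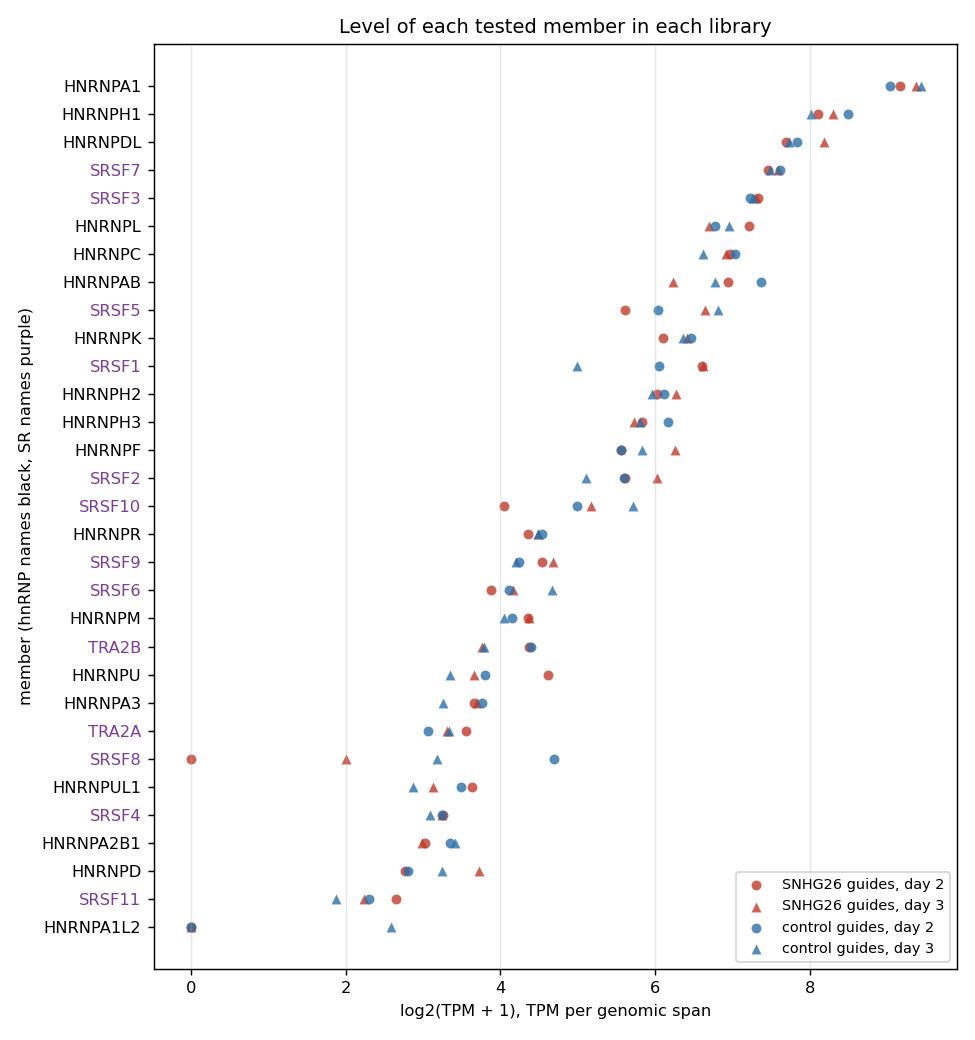
Level of the 31 tested members, ordered by mean TPM from top to bottom, as log2(TPM + 1) in each library; red marks the knockdown arm, blue the control arm, circles day 2 and triangles day 3. HNRNPA1 stands apart at the top, SRSF7 and SRSF3 have nearly coincident points, and SRSF8, SRSF1 and SRSF10 spread most among the SR members.

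Summed over the members, the level was 2395, 2652, 2519 and 2459 TPM, which was 0.250%, 0.278%, 0.263% and 0.257% of the listed TPM. The mean was 2523 ± 182 TPM (SD, n = 2) in the knockdown arm and 2489 ± 42.2 TPM (SD, n = 2) in the control arm, a difference below the spread of the knockdown libraries. The hnRNP members made up 1774, 1932, 1869 and 1820 TPM of this and the SR members 621, 720, 650 and 639 TPM.

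The deposited TPM divides by the genomic span with introns, so the order of the members depends on the length used. HNRNPH2 shows it: its values came out whole on the listed span of 5912 bases, whereas its GENCODE transcript is 2223 bases after splicing. HNRNPC has the widest listed span of the tested members, 60359 bases, and ranked 7 by TPM. With its reads placed on its median transcript span of 56449 bases it held an estimated 954, 1028, 907 and 818 reads and ranked 1 by estimated reads per kb of spliced mRNA, with a mean of 707 against 213 for HNRNPA1 and 205 for HNRNPH1. Placed on its shortest annotated transcript, the same values came to 18.0, 19.4, 17.1 and 15.4 reads, below 50.9, 65.3, 42.2 and 66.4 for HNRNPA1 on its shortest. The rank of HNRNPC by reads therefore rests on which transcripts were read, which the table does not give. HNRNPM went from rank 20 by TPM to rank 9, and HNRNPD from rank 29 to rank 16. In the other direction, SRSF6 went from rank 19 to rank 28 and SRSF1 from rank 11 to rank 20. These ranks rest on the transcripts assumed as well. In knockdown day 2, HNRNPM held an estimated 53.5 reads on its median transcript span and 2.75 on its shortest, and HNRNPD 13.3 and 2.04. The reads used the median span of all transcripts, whereas the kb were the median spliced length of protein-coding ones. For HNRNPA1 the median span was 2048 bases over all transcripts and 3131 over protein-coding ones. Of the 5 members highest by TPM, 2 were among the 5 highest by reads on the full span.

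**Figure D2:**
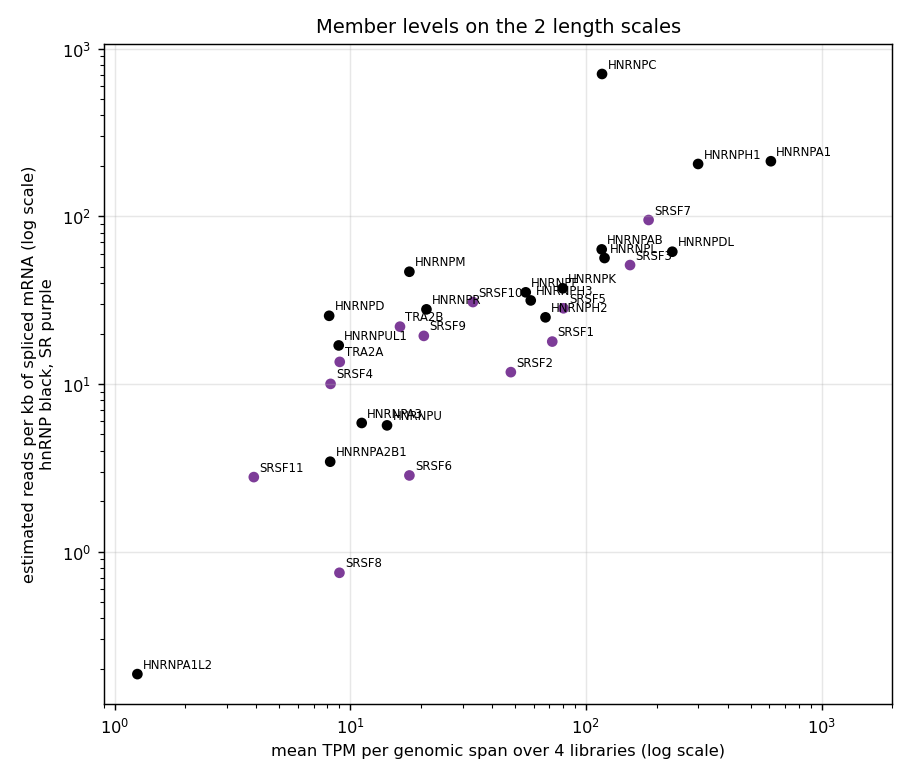
Mean TPM per genomic span over the 4 libraries (x axis, log scale) against estimated reads per kb of spliced mRNA (y axis, log scale) for each tested member, hnRNP in black and SR in purple. HNRNPC lies well above the others at 707 reads per kb and 117 TPM, and SRSF6 and SRSF8 lie low for their TPM.

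Several members rested on few or no reads. HNRNPA0, HNRNPUL2 and HNRNPA1L3 were listed at 0 TPM in all 4 libraries. HNRNPA1L2, an intronless copy of HNRNPA1, had 1 read in control day 3 (5.00 TPM) and 0 in the others, and so passed the filter through 1 library. SRSF8, a retrogene related to SRSF2, had 0, 3.03, 24.9 and 8.07 TPM, at most 0, 2.00, 13.4 and 5.18 reads. For these genes reads may also be shared with close copies, and how the authors assigned such reads is not given in the sources used here.

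Processed copies of members took reads too. HNRNPA3P6 had 6, 6, 6 and 7 reads, or 43.5, 39.0, 47.9 and 46.7 TPM, and HNRNPCP2 had 2, 1, 3 and 3 reads. On its own, HNRNPA3 held at most 17.1 to 24.6 reads in a library, so the assignment between gene and copy matters for its level. Overlaps with genes on the other strand touch further members, since counting by strand is not stated. SRSF9 as listed shares 26097 bases with DYNLL1, whose mean was 589 TPM, HNRNPU shares 4420 bases with COX20, and HNRNPA2B1 shares 15987 bases with NFE2L3 and 368 with CBX3. HNRNPH2 shares 4076 bases with the readthrough gene RPL36A-HNRNPH2 on its own strand, which is listed at 0. SRSF9 also shares 7868 bases with NRAV on its own strand, whose mean was 7.48 TPM. On the other strand, HNRNPF shares 1337 bases with LINC02916 and HNRNPD 424 with HNRNPD-DT. The values of SRSF9, HNRNPU, HNRNPA2B1, HNRNPF and HNRNPD are uncertain to that extent. Overlaps of further members are not given here.

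The first comparison asked whether the guides against SNHG26 changed the levels of these regulators. Of the 31 tested members 0 passed, as did 0.0% of all 8274 genes tested, with limma on log2(TPM + 1) and a Benjamini-Hochberg adjusted p of 0.05. At an unadjusted p under 0.05 there was 1 member, SRSF8, against 4.07% of all genes. The members' median log2 change was 0.09, with -0.04 on day 2 and 0.10 on day 3, beside a median of 0.04 over all genes. Without knockdown day 3 the members' median was -0.0671. Among genes that averaged 50 TPM or more the order was reversed, with a median of 0.0488 for 14 members and 0.106 for 1145 genes. The differences were small for most members: 26 of 31 (83.9%) had a log2 change within 0.5 of 0, against 63.4% of all genes tested. Above an average of 50 TPM the shares were 13 of 14 members (92.9%) and 88.3% of 1145 genes. Fewer cells of a kind and less RNA per cell cannot be told apart in these bulk samples.

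SRSF1 had the largest positive change among the members. Its knockdown libraries, at 96.0 and 96.7 TPM, both lay above its control libraries, at 64.9 and 30.6 TPM. The means were 96.3 ± 0.502 and 47.7 ± 24.2 TPM (SD, n = 2). The log2 change was 1.09 (SE 0.42), with 0.56 on day 2 and 1.63 on day 3, at a limma adjusted p of 0.935 (unadjusted 0.0581). Control day 3 was the lowest library: without it the change was 0.56, and without control day 2 it was 1.62, with limma adjusted p-values of 0.564 and 0.197. An estimated 32.9, 37.0, 20.2 and 11.4 reads lay behind these values.

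Other SR members with groups apart were smaller in size or thin in reads. SRSF9 had 22.1, 24.6, 17.9 and 17.5 TPM, a log2 change of 0.38 (SE 0.26). SRSF2 had a change of 0.46 (SE 0.31), of which day 2 gave 0.01 and day 3 gave 0.91, on at most 31.4 reads in a library. SRSF3 had a change of 0.07 (SE 0.17), and its groups were apart only because its values were so close within each arm. SRSF8 was lower in both knockdown libraries, with a change of -2.93 (SE 0.93) and a limma adjusted p of 0.935 (unadjusted 0.0331), on the few reads given above. With 1 library at 0 this value depends on the pseudocount and is no bound: it was -4.67 with 0.1 (unadjusted p 0.0622) and -1.64 with 5. The unadjusted p was 0.0542 when the fit held a replicate block by day. The limma adjusted p-values of SRSF9, SRSF2 and SRSF3 ran from 0.935 to 0.998.

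Of the SR members whose arms overlapped, SRSF10 had the largest change, -0.74 (SE 0.52), with -0.94 on day 2 and -0.53 on day 3. It was -0.17 without knockdown day 2 and -1.30 without knockdown day 3, and -1.10 and -0.38 without control day 2 and control day 3. SRSF11 had the same sign on both days as well, 0.34 and 0.36, with a mean of 0.35 (SE 0.39) on at most 34.4 reads. SRSF6 had a change of -0.37 (SE 0.34), SRSF5 of -0.29 (SE 0.49), SRSF4 of 0.09 (SE 0.29) and SRSF7 of -0.03 (SE 0.18). TRA2A, the member nearest to SNHG26, had a change of 0.22 (SE 0.31), with 0.48 on day 2 and -0.04 on day 3. TRA2B had a change of -0.02 (SE 0.40). SRSF10, SRSF6 and SRSF5 were each lower with the SNHG26 guides on both days, while TRA2A had opposite signs on the days and TRA2B was close to 0 on each.

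Changes were small for most hnRNP members. HNRNPA2B1 had 7.16, 6.91, 9.15 and 9.67 TPM, so both knockdown libraries were lower, with a log2 change of -0.37 (SE 0.29). HNRNPM, which binds GU-rich sites, had 19.5, 19.6, 16.7 and 15.5 TPM, a change of 0.27 (SE 0.26) with both knockdown libraries higher. HNRNPR, a relative of SYNCRIP, had groups apart by a hair, with a change of -0.09 (SE 0.25). HNRNPAB had a change of -0.48 (SE 0.37), with -0.43 on day 2 and -0.54 on day 3, although its arms overlapped. It was -0.84 without knockdown day 2, -0.13 without knockdown day 3, -0.19 without control day 2 and -0.78 without control day 3. HNRNPU, which ties RNA to chromatin, had 23.5, 11.7, 13.0 and 9.18 TPM, a change of 0.56 (SE 0.45) that was 0.81 on day 2 and 0.32 on day 3. Without knockdown day 2 it was 0.09, without knockdown day 3 it was 1.04, and without control day 3 it was 0.34.

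The most abundant hnRNP members showed no common direction. The log2 difference was 0.03 (SE 0.20) for HNRNPA1, -0.05 (SE 0.23) for HNRNPH1, 0.15 (SE 0.23) for HNRNPDL, 0.09 (SE 0.26) for HNRNPL and 0.11 (SE 0.23) for HNRNPC, none past the test. The sign for HNRNPA1 turned with quantile normalization and with median ratio scaling. HNRNPK had -0.15 (SE 0.22), HNRNPH2 0.11 (SE 0.22), HNRNPH3 -0.21 (SE 0.24) and HNRNPF 0.21 (SE 0.33). Lower in level, HNRNPA3 had 0.17 (SE 0.33), HNRNPD 0.22 (SE 0.47) and HNRNPUL1 0.20 (SE 0.40). The limma adjusted p-values of all tested hnRNP members were at least 0.935.

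Counted over the members, the arms did not overlap in 5 of 31 with the knockdown higher (16.1%, beside 16.1% of all genes tested) and in 3 of 31 with the knockdown lower (9.68%, beside 13.2%). The higher ones were SRSF1, SRSF2, SRSF3, SRSF9 and HNRNPM, and the lower ones SRSF8, HNRNPA2B1 and HNRNPR. The change had the same sign on both days in 10 members that were higher (32.3%, beside 24.8%) and 9 that were lower (9 of 31, beside 21.8%), and opposite signs in 11. HNRNPA1L2, with its 1 read, had a day 2 change of 0. Among genes that averaged 50 TPM or more, the arms did not overlap with the knockdown higher in 2 of 14 members (14.3%, beside 25.5% of 1145 genes) and with it lower in 0 of 14 (beside 8.03%). The sign was the same on both days and higher in 3 of these 14 (21.4%, beside 41.1%), and lower in 3 (beside 15.8%).

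**Figure D3:**
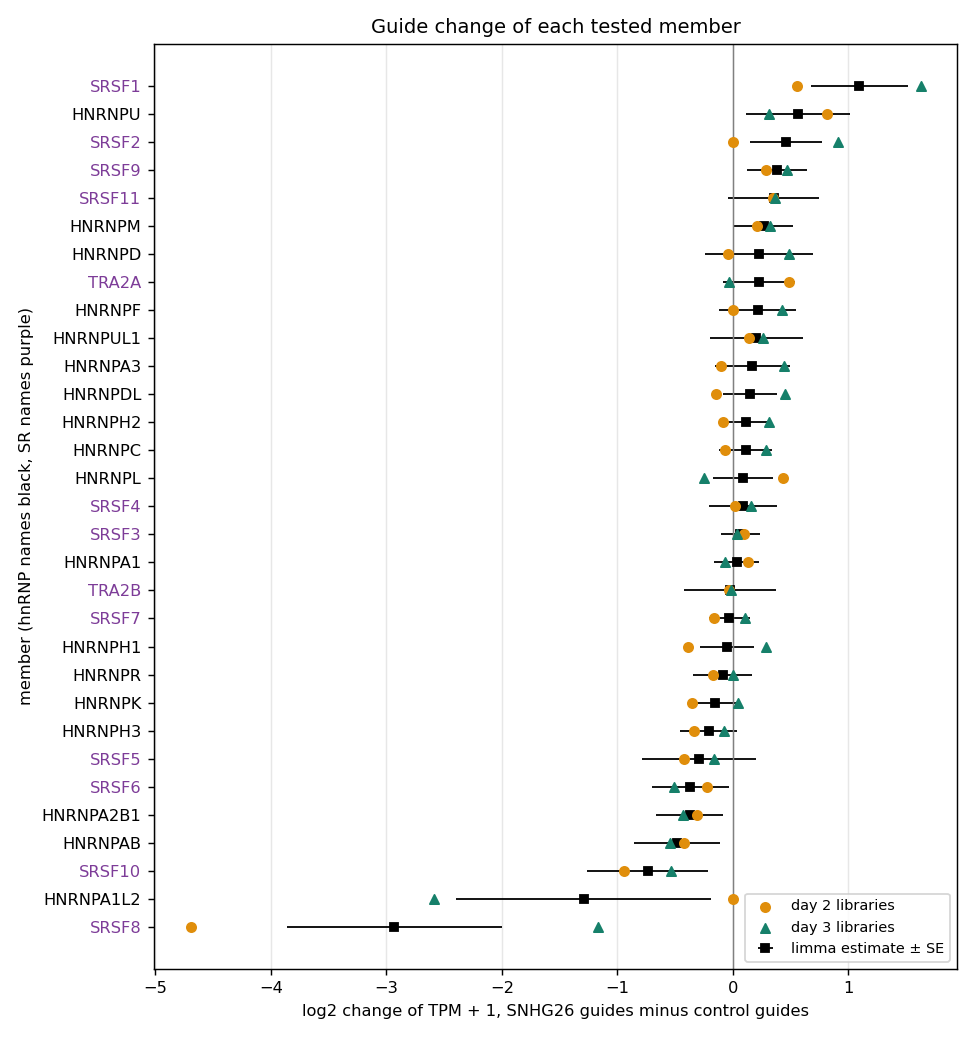
Log2 change of TPM + 1 between the SNHG26 guides and the control guides for each tested member, ordered by the limma estimate (black squares, bars 1 SE), with the day 2 libraries as orange circles and the day 3 libraries as green triangles. All but 5 estimates lie within 0.5 of 0; SRSF8 at -2.93, HNRNPA1L2 at -1.29 (from its 1 read) and SRSF1 at 1.09 lie furthest out, and no member passed the test.

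The second comparison set day 3 of doxycycline against day 2, over both arms. Again 0 of 31 members passed, beside 0.0363% of all genes, which is 3 of 8274. At an unadjusted p under 0.05 there was 1 member, SRSF5, beside 6.61% of all genes. The members' median change was 0.00, with 0.04 with the SNHG26 guides and -0.10 with the control guides, beside 0.01 over all genes. It was -0.0471, -0.0487 and -0.0432 without knockdown day 2, knockdown day 3 or control day 2. In 14 members the days did not overlap, 6 with day 3 higher (19.4%, beside 17.1% of all genes) and 8 with day 3 lower (25.8%, beside 18.4%). These 14 were also the members whose day difference had the same sign in both arms, for which the shares of all genes were 24.3% higher and 24.8% lower. Among genes that averaged 50 TPM or more, day 3 was higher without overlap in 3 of 14 members (21.4%, beside 22.1% of 1145 genes). Day 3 was lower without overlap in 3 of them (21.4%, beside 18.9%).

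Higher on day 3 in both arms were SRSF5, SRSF10, SRSF6, HNRNPD, HNRNPF and HNRNPA1. SRSF5 went from 47.5 to 98.9 TPM in the knockdown arm and from 64.2 to 111 TPM in the control arm. Its log2 change was 0.91 (SE 0.23), at a limma adjusted p of 0.566 (unadjusted 0.0178). SRSF10 went from 15.5 to 35.1 TPM and from 30.8 to 51.3 TPM, a change of 0.92 (SE 0.43) at an adjusted p of 0.760. HNRNPD, known as a factor of AU-rich mRNA decay, had a change of 0.69 (SE 0.30), HNRNPF of 0.48 (SE 0.23), SRSF6 of 0.42 (SE 0.29) and HNRNPA1 of 0.30 (SE 0.12). On the median transcript span SRSF5 held an estimated 16.2, 37.6, 19.8 and 41.0 reads, and at most 294, 683, 361 and 744 reads on the listed span of 45106 bases.

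Lower on day 3 in both arms were TRA2B, HNRNPAB, HNRNPU, HNRNPUL1, SRSF11, HNRNPH3, HNRNPC and SRSF4. TRA2B went from 19.6 to 12.6 TPM in the knockdown arm and from 20.1 to 12.8 TPM in the control arm, and its arms were nearly equal on each day. Its log2 change was -0.61 (SE 0.22), with a limma adjusted p of 0.760 (unadjusted 0.053). HNRNPAB went from 121 to 73.9 TPM and from 164 to 108 TPM, a change of -0.65 (SE 0.29). HNRNPU had a change of -0.70 (SE 0.39), HNRNPUL1 of -0.57 (SE 0.27), SRSF11 of -0.43 (SE 0.34), HNRNPH3 of -0.23 (SE 0.21), HNRNPC of -0.23 (SE 0.18) and SRSF4 of -0.09 (SE 0.25). Each family had members on either side. Higher without overlap were 3 of 18 hnRNP members (16.7%) and 3 of 13 SR members (23.1%), beside 17.1% of all genes tested. Lower without overlap were 5 hnRNP members (27.8%) and 3 SR members (23.1%), beside 18.4%.

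**Figure D4:**
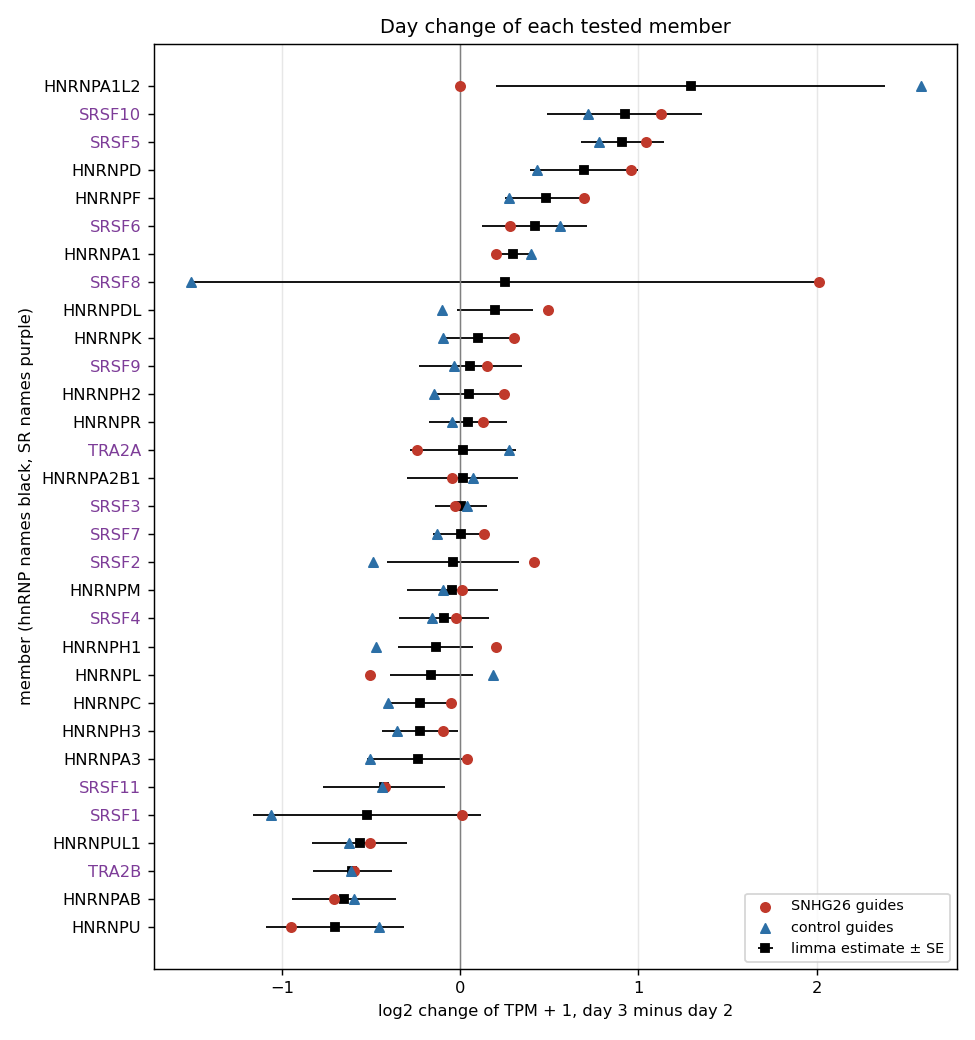
Log2 change of TPM + 1 between day 3 and day 2 for each tested member, ordered by the limma estimate (black squares, bars 1 SE), with the knockdown arm as red circles and the control arm as blue triangles. SRSF10 at 0.92 and SRSF5 at 0.91 are high in each arm, TRA2B at -0.61 and HNRNPAB at -0.65 are low in each arm, and no member passed the test.

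The guide change was also compared between the days, as the crossed contrast of the 4 libraries, whose error here includes the differences between arms and days. Of the members 0 passed in limma, beside 0.0967% of all genes (8 of 8274), and 0 had an unadjusted p under 0.05, beside 3.52% of all genes. HNRNPH1 was lower with the SNHG26 guides on day 2 (-0.39) and higher on day 3 (0.29), a difference of 0.67 (SE 0.34). HNRNPL was higher on day 2 (0.44) and lower on day 3 (-0.25), a difference of -0.69 (SE 0.40). Both had a limma adjusted p of 0.961, and both were named after their values were seen.

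Genes that work with the hnRNP and SR proteins were followed in 5 lists. With limma at an unadjusted p under 0.05, between the arms there was 1 gene each among the SR-related proteins and the kinases and 0 in the other lists, beside 4.07% of all genes. Between the days there were 4 among the hnRNP relatives, 2 among the tissue-restricted regulators, 1 each among the kinases and the decay factors and 0 among the SR-related proteins, beside 6.61% of all genes. Of 27 hnRNPs and relatives with other names, 20 were tested and 0 passed between the arms, with a median change of 0.18 beside 0.04 over all genes. Without control day 3 the list's median was 0.0304. The arms did not overlap in 4 of 20, beside 16.1% of all genes, all with the knockdown higher. RBMX, also called hnRNP G, had 144, 162, 125 and 128 TPM, a log2 change of 0.27 (SE 0.18) with both knockdown libraries higher. DDX5, an RNA helicase, had 23.8, 49.3, 11.6 and 32.4 TPM, a change of 0.79 (SE 0.65) with overlapping arms. Between the days 0 of the 20 passed, with a median of 0.01. PCBP2, a poly(C) binder, had 23.7, 12.1, 19.1 and 11.5 TPM and was lower on day 3 in each arm. MATR3, a nuclear matrix protein, had 25.1, 63.0, 33.9 and 52.2 TPM and, like DDX5, was higher on day 3 in each arm. The limma adjusted p-values of PCBP2, MATR3 and DDX5 for the days ran from 0.595 to 0.760.

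Of 32 SR-related proteins, which carry arginine-serine stretches or work with such proteins, 27 were tested and 0 passed in either comparison, with median changes of 0.07 between the arms and -0.06 between the days. The arms did not overlap in 6 with the knockdown higher (22.2%, beside 16.1% of all genes) and 3 with it lower (11.1%, beside 13.2%). PNISR had 13.7, 33.2, 42.0 and 53.0 TPM and PNN 41.4, 37.1, 54.5 and 44.1 TPM, with the knockdown libraries lower for both. RBM23 had 7.51, 10.4, 4.48 and 3.02 TPM and LUC7L, a partner of the U1 particle, 6.80, 8.72, 3.73 and 3.84 TPM, with the knockdown libraries higher. Their changes ran from -1.10 (SE 0.50) for PNISR to 1.07 (SE 0.37) for RBM23, each at a limma adjusted p of 0.935. Between the days, ACIN1 (-1.06, SE 0.44) and RBM25 (-0.48, SE 0.24) were lower and RSRC2 (0.35, SE 0.22) and PNISR (0.77, SE 0.63) higher on day 3 in each arm.

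Kinases, a phosphatase and carriers that act on SR proteins were mostly low, and 10 of 18 were tested, with 0 past the threshold in either comparison. CLK3, which phosphorylates SR proteins in the nucleus, had 19.9, 13.6, 4.15 and 6.63 TPM, a log2 change of 1.48 (SE 0.39) with a limma adjusted p of 0.920. Its relative CLK1 had 16.6, 7.41, 8.78 and 3.48 TPM, a change of 0.88 (SE 0.61) with overlapping arms, and between the days a change of -1.09 (SE 0.51). PPP1CC had a day change of -0.27 (SE 0.27). The list's medians were -0.13 between the arms and -0.08 between the days.

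Of 31 genes on the list named tissue-restricted splicing regulators, 13 were tested and 0 passed. The medians were -0.07 between the arms and -0.04 between the days. The name of this list was not checked against levels in other tissues. ESRP1, the epithelial splicing regulator, was lower on day 3 in each arm, with a change of -1.33 (SE 0.46), and its guide change was 0.72 (SE 0.72). CELF1 had 15.6, 3.17, 14.3 and 4.57 TPM, a day change of -1.73 (SE 0.29) with a limma adjusted p of 0.335, the lowest of the 5 lists. ZNF638 had 4.90, 3.07, 6.76 and 5.84 TPM and a guide change of -0.57 (SE 0.37). Of 15 nonsense-mediated decay factors, which degrade the poison-exon forms of SR mRNAs, 11 were tested and 0 passed, with medians of 0.04 and -0.21. EIF4A3, a core part of the exon junction complex, had 108, 73.8, 87.2 and 61.6 TPM with a guide change of 0.28 (SE 0.32), and RBM8A, its partner in that complex, 32.9, 22.9, 35.6 and 18.4 TPM. Their day changes were -0.52 (SE 0.22) and -0.71 (SE 0.23), and SMG8 had a day change of 0.55 (SE 0.28).

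Annotated features of the members, which the choice by name had not used, were set beside those of other genes. In GENCODE release 29 the 31 tested members had a median of 11 annotated transcripts, against 8 for 6560 other tested protein-coding genes. At least 1 transcript labelled as a target of nonsense-mediated decay was annotated for 13 of 13 SR members (100%) and 12 of 18 hnRNP members (66.7%), against 43.8% of the other genes. A transcript with a retained intron was annotated for 10 SR members (76.9%) and 12 hnRNP members (66.7%), against 60.1%. These shares were not matched for the number of annotated transcripts or for level, which both differed between members and other genes. The deposited table gives 1 value per gene, so these forms were not measured apart. A start of another listed gene lay within 1000 bases on the opposite strand for 8 of 31 members (25.8%), close to the 24.7% of 6805 other tested protein-coding genes. The pairs were HNRNPA1 with CBX5 (60 bases apart), HNRNPA2B1 with CBX3, HNRNPD with HNRNPD-DT, HNRNPDL with ENOPH1, HNRNPH2 with GLA, HNRNPK with RMI1, SRSF7 with GEMIN6 (40 bases apart) and SRSF11 with LRRC40. Over the 4 libraries the tested members varied by a median coefficient of 16.7%, against 34.0% for the other genes, and their median level of 33.2 TPM was above the 5.53 TPM of those genes.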

How the data were processed

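TPM per gene and library came from the table the authors deposited. Reads were aligned with minimap2 2.24-r1122 to GRCh38, per the submitters' processing notes. The counting tool, annotation release and filters are not given in the sources used here. The value of 1 read was taken as the commonest product of TPM and span among genes under 3 kb. The 8274 genes that averaged 1 TPM or more were tested on log2(TPM + 1), which understates changes of low genes, with limma 3.58.1 in R 4.3.3 (eBayes with a mean-variance trend), Benjamini-Hochberg adjustment over all genes and a threshold of 0.05. The fitting code was tested on simulated data. The members and lists were chosen with earlier results of these data known. Values in every library are given for the 15 members highest in TPM, the TRA2 pair and the 3 members each way with the largest change shared by both days. Of each list, up to 2 genes each way with a mean of at least 5 TPM are named. Some genes that this rule names are not reported here. Other values were chosen after they were seen. MATR3 has 2 rows, and the higher one was used. Protein sequences were not used here.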

Additional observations from a re-analysis of the deposited data

How the results depend on the processing

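The alternatives were pseudocounts of 0.1 and 5, no filter, means of at least 5 and 50 TPM, at least 20 reads on the full span, median ratio scaling, quantile normalization, no trend in eBayes, a replicate block by day and leaving out each library, where the lone library of an arm or day is assumed to vary like the others. The members gave 0 past the threshold under every alternative in all 3 comparisons, with 31 tested except 33 without a filter, 29 at 5 TPM and at 20 reads, and 14 at 50 TPM. The smallest adjusted p was 0.0962 for the guides, 0.0817 for the days and 0.111 for the difference between the days. The filters, the trend and the block cannot move a member's estimate, so its sign was tested by the pseudocounts and scalings, where it held for 30 of 31 members between the arms and 28 between the days. With 1 library left out it held for 18 and 16. Same-day libraries deviated from their arm means with a correlation of 0.0464 over 8274 genes. The replicate block gave 0 genes between the arms, as in the main test, and 0 between the days and in the crossed contrast.

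The 3 genes that differed between the days became 0 with either pseudocount, no filter, at least 50 TPM, 20 reads, quantile normalization, no trend, the replicate block and each library left out (0 to 0). The 8 genes of the crossed contrast became 14 with a pseudocount of 0.1, 13 with at least 5 TPM, and 0 with a pseudocount of 5, no filter, at least 50 TPM, 20 reads, no trend, the replicate block and each library left out (0 to 0). The members' day median became -0.0234 with quantile normalization. HNRNPA1 became -0.0157 with quantile normalization and -0.00723 with median ratio scaling. Of the 5 members highest by TPM, 2 remained with reads on the full span. The list of kinases and carriers became 0.0364 between the arms with at least 5 TPM, and 0.0133 without a filter and 0.0237 with 20 reads between the days. The SR-related list became 0.0104 between the days with at least 50 TPM. The hnRNP relatives became -0.0298 between the days with a pseudocount of 0.1, -0.0227 without a filter, with 5 TPM and with 20 reads, -0.22 with 50 TPM and -0.0245 with quantile normalization. The cause was not tested.

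With each library left out in turn, the guide medians ran from -0.0671 (without knockdown day 3) to 0.0796 for members, -0.0965 to 0.138 for kinases and carriers, -0.106 to 0.195 for decay factors and -0.0833 to 0.0153 for tissue-restricted regulators, 0.0304 to 0.236 for hnRNP relatives and 0.102 to 0.207 for SR-related proteins. The day medians ran from -0.0487 to 0.0205 for members (below 0 without any library but control day 3), -0.0906 to 0.0402 for SR-related proteins, -0.159 to 0.127 for hnRNP relatives and -0.102 to 0.0157 for tissue-restricted regulators. Guide changes that turned ran from -0.165 to 0.229 for HNRNPA1, -0.287 to 0.188 for HNRNPH1, -0.0972 to 0.396 for HNRNPDL, -0.096 to 0.0377 for SRSF7, -0.162 to 0.345 for HNRNPL, -0.0911 to 0.313 for HNRNPC and -0.815 to 0.227 for SRSF5. They ran from -0.00958 to 0.236 for HNRNPH2, -0.131 to 0.561 for HNRNPF, -0.33 to 0.285 for TRA2B, -0.0844 to 0.424 for HNRNPA3, -0.109 to 0.516 for HNRNPUL1 and -0.254 to 0.703 for HNRNPD. Among members that kept their sign, SRSF2 ran from 0.211 to 0.703, SRSF6 from -0.646 to -0.0887 and SRSF11 from 0.134 to 0.571. SRSF8 and HNRNPA1L2 had at most 13.4 reads in a library, so their changes rest on few reads and are not relied on. No limit of detection was computed for any member.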
